A study of Mus musculus with 4 samples.

Results

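Calcineurin and the proteins that act beside it were followed here as 10 genes. These were the catalytic subunit genes Ppp3ca, Ppp3cb and Ppp3cc, the regulatory subunit gene Ppp3r1, the regulators Rcan1, Rcan2 and Rcan3, and the transcription factor genes Nfatc2, Nfatc3 and Nfat5. They were taken by symbol from 32531 gene rows, and all 10 were among the 14493 genes with enough counts to be tested. The group was chosen by function, but with the fold changes between accumbens and dorsal striatum already known, so the values in that comparison are a description and carry no test.

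Calcineurin is a serine/threonine phosphatase that is switched on by calcium and calmodulin. A catalytic A subunit, made from Ppp3ca, Ppp3cb or Ppp3cc, pairs with a calcium-binding B subunit, which in brain is made from Ppp3r1. The active enzyme removes phosphates from NFAT transcription factors, which then enter the nucleus, while the RCAN proteins bind the catalytic subunit and restrain it. In spiny projection neurons (SPNs), the main neurons of the striatum, calcineurin dephosphorylates DARPP-32, the product of Ppp1r1b, and so opposes dopamine D1 receptor signalling through protein kinase A.

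The libraries came from the accumbens nucleus (2 libraries) and the dorsal striatum (2 libraries) of animals older than 20 months of the line Drd1-TRAP CP73. All of them carry an EGFP-tagged Rpl10a, a ribosomal protein, under Drd1 regulatory sequence, which is active in 1 class of SPN. Each library is labelled as input, taken here as total RNA of the dissected piece with no pull-down of tagged ribosomes, so it holds the RNA of every cell type in that piece. No source used here gives the sex or the number of animals behind a library or says that libraries came from separate animals, so SDs and p-values cover only the spread of these libraries, which may be technical.

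Counts assigned to genes were 8606099 and 8478403 in accumbens replicates 1 and 2, against 8991788 and 11849134 in dorsal striatum replicates 1 and 2. The accumbens libraries held fewer genes with a count (16915 and 17417, against 19519 and 19532) and more ribosomal RNA precursor (Rn45s, 5.61% and 5.94% of counts, against 2.03% and 3.34%). The SPN marker Ppp1r1b averaged 1015 ± 93.4 library-size-scaled counts (CPM) in accumbens, against 1129 ± 183 CPM in dorsal striatum, and Drd1 averaged 239 ± 26.8 CPM, against 293 ± 10.2 CPM (SD, n = 2 each). The 9 SPN markers summed to 4183 and 3507 CPM in accumbens, against 4461 and 4614 CPM in dorsal striatum, and 5 of them did not overlap between regions, 2 higher and 3 lower in accumbens. The 5 cortical glutamatergic markers summed to 276 and 129 CPM in accumbens, against 75.3 and 7.25 CPM in dorsal striatum. Of these, 4 did not overlap between regions, each higher in accumbens. As a baseline for the SPN and the cortical counts, 51.2% of all tested genes did not overlap between regions. The 5 oligodendrocyte markers summed to 2025 and 2363 CPM, against 1954 and 1351 CPM, and the 5 microglial markers to 61.4 and 64.8 CPM, against 50.1 and 37.7 CPM. Astrocyte sums overlapped, at 312 and 297 CPM against 330 and 207 CPM. The thalamic and hypothalamic marker Slc17a6 was at 3.59 and 19.9 CPM in accumbens, against 15.2 and 22.4 CPM in dorsal striatum. The 4 endothelial markers summed to 37.0 and 12.6 CPM, against 14.5 and 5.58 CPM, with Cldn5 at 0 in replicate 2 of either region. The 3 choroid plexus markers summed to 10.3 and 10.2 CPM, against 3.36 and 4.46 CPM, with Ttr at 0 in both accumbens libraries. The part of these marker, depth and Rn45s differences in the results that follow was not tested, and in bulk RNA fewer cells of a type and less RNA per cell cannot be told apart.

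The main catalytic subunit gene, Ppp3ca, was lower in accumbens. It had 1465 and 1234 CPM in accumbens, from 11830 and 9873 counts, against 2342 and 2357 CPM in dorsal striatum, from 22293 and 29575 counts. Every accumbens library lay below every dorsal striatum library, and the dorsal striatum libraries were almost equal. The accumbens mean was 1350.0 ± 164 CPM, 0.575 times the dorsal striatum mean of 2350.0 ± 10.2 CPM (SD, n = 2 each). The log2 fold change was −0.80 (standard error, SE, 0.12), from edgeR on counts scaled between libraries by TMM. Ppp3ca (ENSMUSG00000028161.17, chromosome 3, 136670124 to 136937727, plus strand, GRCm38) ranked 36 and 43 by CPM among the 14493 genes in accumbens, against 15 and 17 in dorsal striatum. It made up 0.138% and 0.116% of all counts in genes in accumbens, against 0.248% and 0.250% in dorsal striatum.

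Ratios within a library need no scaling between libraries. Counts of Ppp3ca were 1.36 and 1.30 times those of Ppp1r1b in accumbens, against 2.34 and 1.87 times in dorsal striatum. Against Drd1 they were 5.69 and 5.62 times in accumbens and 7.81 and 8.25 times in dorsal striatum. Neither ratio overlapped between regions, and both use values of Ppp3ca that were known when the group was chosen. Without accumbens replicate 1 the log2 fold change of Ppp3ca was −0.93, and without accumbens replicate 2 it was −0.68.

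**Figure D1:**
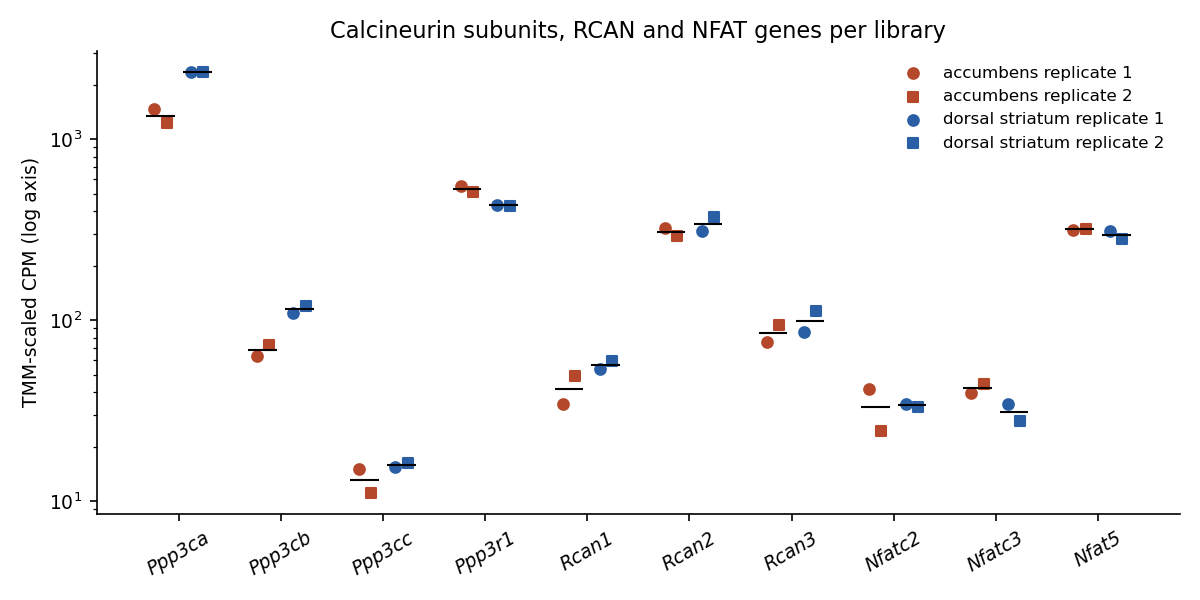
TMM-scaled CPM (log axis) of the 10 genes in each library, accumbens in red and dorsal striatum in blue, with circles for replicate 1, squares for replicate 2 and a line at the mean of each region. Ppp3ca and Ppp3cb sit lower in both accumbens libraries, Ppp3r1 sits higher, and the Rcan2, Rcan3 and Nfatc2 points of the regions overlap.

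Ppp3cb, which encodes the catalytic subunit isoform also called A beta, was lower in accumbens by a similar factor. It had 63.4 and 73.0 CPM in accumbens, against 110 and 120 CPM in dorsal striatum, where the groups do not overlap. Means were 68.2 ± 6.78 CPM and 115 ± 7.09 CPM (SD, n = 2 each), with a log2 fold change of −0.75 (SE 0.16). The gene (ENSMUSG00000021816.11) lies on chromosome 14, 20499364 to 20546573, minus strand.

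Ppp3cc, the catalytic isoform first known from testis, was the lowest of the catalytic genes, with 89 to 203 counts in a library. It had 15.1 and 11.1 CPM in accumbens, against 15.5 and 16.2 CPM in dorsal striatum. The groups did not overlap, but the nearest libraries were almost equal and the log2 fold change of −0.27 was smaller than its SE of 0.31. Ppp3cc (ENSMUSG00000022092.11) lies on the same chromosome at 70217865 to 70289471, minus strand, and shares 3.05% of its exon bases with the antisense gene Gm49417, whose reads cannot be told apart without a known strand setting.

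Ppp3ca thus kept nearly the same place among the catalytic genes in either region. Its share of the catalytic counts was 94.9% (95% Wilson interval 94.5 to 95.3%) and 93.6% (93.1 to 94.1%) in accumbens, against 94.9% (94.6 to 95.2%) and 94.6% (94.3 to 94.8%) in dorsal striatum, where the intervals cover counting error only. Corrected for the length of the longest coding transcript, these shares were 92.7% and 91.3% in accumbens and 93.1% and 92.6% in dorsal striatum. Counts of Ppp3ca were 23.1 and 16.9 times those of Ppp3cb in accumbens, against 21.4 and 19.7 times in dorsal striatum, so the regions overlap in this ratio. The accumbens libraries differed in the share of Ppp3ca by more than counting error, and replicate 1 lay within the range of dorsal striatum.

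The regulatory subunit gene Ppp3r1 was on the other side. It had 555 and 511 CPM in accumbens, against 432 and 430.0 CPM in dorsal striatum, with no overlap between regions. Means were 533 ± 30.9 CPM and 431 ± 1.15 CPM (SD, n = 2 each), 1.24 times the dorsal striatum level, with a log2 fold change of 0.31 (SE 0.12). The fold change was 0.14 when libraries were scaled by their size alone, a scaling under which the median of all genes was −0.15 in place of 0.02. Ppp3r1 (ENSMUSG00000033953.10, chromosome 11, 17159263 to 17200375, plus strand) shares 14.3% of its exon bases with Wdr92 on the same strand. Reads there may have been set aside as ambiguous, and Wdr92 itself had 79 and 70 counts in accumbens, against 137 and 153 in dorsal striatum.

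The catalytic sum was lower in accumbens and Ppp3r1 was higher, so their ratio had to differ more than either part alone. The ratio uses values known when the group was chosen, so it is a description. Per kilobase of longest coding transcript, the sum of the 3 catalytic genes was 1.71 and 1.59 times Ppp3r1 in accumbens, against 3.50 and 3.56 times in dorsal striatum. Means were 1.65 ± 0.0870 in accumbens and 3.53 ± 0.0382 in dorsal striatum (SD, n = 2 each), a quotient of 0.468 that is free of the scaling between libraries. With the union of all annotated exons as the length, the ratio was 0.926 and 0.857 in accumbens and 1.89 and 1.92 in dorsal striatum, a quotient of 0.469. The size of the ratio thus moved with the gene length used, while the quotient between regions hardly did.

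**Figure D2:**
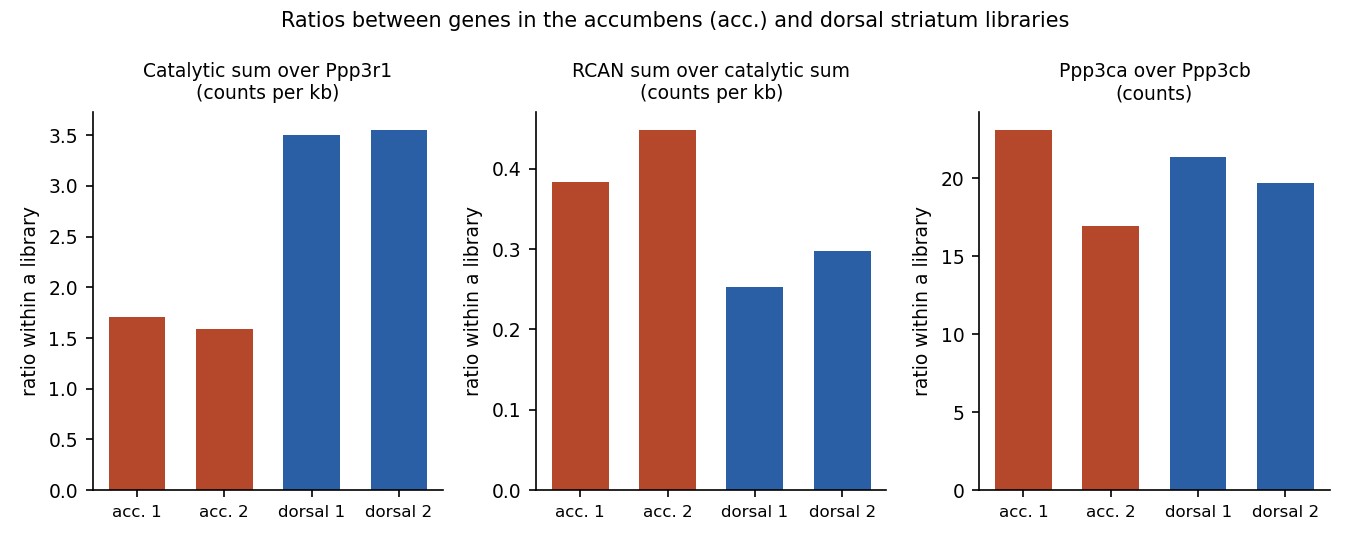
Ratios between genes within each library, as bars from 0, for accumbens (acc., red) and dorsal striatum (dorsal, blue) replicates 1 and 2: the catalytic sum over Ppp3r1 and the RCAN sum over the catalytic sum, each in counts per kilobase of longest coding transcript, and Ppp3ca over Ppp3cb in counts. The first ratio is 1.59 to 1.71 in accumbens and 3.50 to 3.56 in dorsal striatum, while the last overlaps between regions.

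Among the RCAN genes, Rcan1 has the best known link to NFAT, since its shorter transcript starts at a promoter inside the gene that NFAT activates in feedback. The row for Rcan1 sums the transcripts of all its starts, so the counts cannot show which start was used. The RefSeq windows (GRCm38.p6) below run from 250 bases before to 50 bases after an annotated start, on the gene's strand, and are shown because they set the upstream start against the internal one. Capitals mark the NFAT core GGAAA, read as TTTCC on the other strand, and the cyclic AMP response element TGACGTCA, a palindrome.
Rcan1 upstream start, chr16:92466120-92466419, minus strand: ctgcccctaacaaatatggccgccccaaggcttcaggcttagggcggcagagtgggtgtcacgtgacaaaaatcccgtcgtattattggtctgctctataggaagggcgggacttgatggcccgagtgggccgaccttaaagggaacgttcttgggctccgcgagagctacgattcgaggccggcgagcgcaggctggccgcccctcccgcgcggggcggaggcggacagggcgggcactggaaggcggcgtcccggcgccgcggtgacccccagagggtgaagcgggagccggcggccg
Rcan1 internal start, chr16:92400029-92400328, minus strand: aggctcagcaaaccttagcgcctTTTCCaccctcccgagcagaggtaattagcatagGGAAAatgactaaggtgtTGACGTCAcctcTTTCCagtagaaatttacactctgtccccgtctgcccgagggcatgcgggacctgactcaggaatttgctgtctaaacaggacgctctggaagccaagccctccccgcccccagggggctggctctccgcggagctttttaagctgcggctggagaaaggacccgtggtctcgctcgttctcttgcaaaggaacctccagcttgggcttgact
The internal window holds 3 matches to the NFAT core and 1 to the cyclic AMP response element, with no overlap between them, and the upstream window holds 0 of each. Of 32851 mouse windows of this length, 61.3% hold at least 1 match to the NFAT core, 9.42% hold 3 or more, and 1.79% hold the response element. These are matches of letters and not sites of binding.

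Rcan1 (ENSMUSG00000022951.16, chromosome 16, 92391953 to 92470867, minus strand) had 34.3 and 49.0 CPM in accumbens, against 53.5 and 59.1 CPM in dorsal striatum. The groups did not overlap, although accumbens replicate 2 came close to dorsal striatum. Means were 41.7 ± 10.4 CPM and 56.3 ± 3.99 CPM (SD, n = 2 each), with a log2 fold change of −0.44 (SE 0.22) that was −0.72 without accumbens replicate 2 and −0.20 without accumbens replicate 1.

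Rcan2 was the most abundant RCAN gene, and its product is the isoform first described as responsive to thyroid hormone. It had 324 and 291 CPM in accumbens, against 312 and 370 CPM in dorsal striatum, so the regions overlap, and the log2 fold change was −0.15 (SE 0.14). Rcan3 had 75.6 and 94.4 CPM in accumbens, against 85.5 and 112 CPM in dorsal striatum, again with overlap and a log2 fold change of −0.22 (SE 0.19). In each region the Rcan3 value was higher in replicate 2. The genes lie on chromosome 17, 43801351 to 44039516, plus strand (Rcan2, ENSMUSG00000039601.16), and on chromosome 4, 135412308 to 135433853, minus strand (Rcan3, ENSMUSG00000059713.12).

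The RCAN genes together differed little while the catalytic genes differed more. Their sum was 434 and 435 CPM in accumbens, against 451 and 541 CPM in dorsal striatum. Per kilobase, the RCAN sum was 0.383 and 0.449 of the catalytic sum in accumbens, against 0.253 and 0.297 in dorsal striatum, with no overlap. Means of this ratio were 0.416 ± 0.0464 and 0.275 ± 0.0312 (SD, n = 2 each), a quotient of 1.51. In CPM, the catalytic sum in accumbens was 0.577 times that in dorsal striatum, and the RCAN sum 0.876 times. The quotient thus restates for the most part the catalytic values known when the group was chosen, and is a description.

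The NFAT genes showed no common direction. Nfatc2, a calcium-regulated NFAT (ENSMUSG00000027544.16, chromosome 2, 168476410 to 168601657, minus strand), had 41.6 and 24.5 CPM in accumbens, against 34.6 and 33.2 CPM in dorsal striatum. The accumbens libraries lay on either side of dorsal striatum, and the log2 fold change of −0.04 (SE 0.27) was −0.47 without accumbens replicate 1 and 0.29 without accumbens replicate 2. Nfatc3, the other calcium-regulated NFAT of the group (ENSMUSG00000031902.10, chromosome 8, 106058840 to 106130537, plus strand), had 39.5 and 44.5 CPM in accumbens, against 34.6 and 27.6 CPM in dorsal striatum. These groups did not overlap, and the log2 fold change was 0.44 (SE 0.21).

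Nfat5 (ENSMUSG00000003847.16, chromosome 8, 107293470 to 107379517, plus strand) encodes the NFAT that responds to osmotic stress and lacks the calcineurin docking region of the others. It had 314 and 321 CPM in accumbens, against 312 and 282 CPM in dorsal striatum, and the nearest libraries were almost equal. Its log2 fold change of 0.10 (SE 0.12) became −0.08 with scaling by library size alone. In counts, Nfat5 was 3.87 and 4.65 times the sum of Nfatc2 and Nfatc3 in accumbens, against 4.51 and 4.64 times in dorsal striatum. These ratios are not corrected for length, and the Nfat5 transcript of 13380 bases is longer than theirs of 6828 and 5984 bases. Per kilobase of longest coding transcript, Nfat5 averaged 23.7 CPM in accumbens, against 4.84 for Nfatc2 and 7.02 for Nfatc3. In dorsal striatum it averaged 22.2 CPM per kilobase, against 4.965 and 5.20.

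The promoter windows of Ppp3cb and Ppp3r1 are shown with the same marks. They were picked because the known fold changes of these genes lay on opposite sides, so no link between matches and direction is read from them.
Ppp3cb, chr14:20546524-20546823, minus strand: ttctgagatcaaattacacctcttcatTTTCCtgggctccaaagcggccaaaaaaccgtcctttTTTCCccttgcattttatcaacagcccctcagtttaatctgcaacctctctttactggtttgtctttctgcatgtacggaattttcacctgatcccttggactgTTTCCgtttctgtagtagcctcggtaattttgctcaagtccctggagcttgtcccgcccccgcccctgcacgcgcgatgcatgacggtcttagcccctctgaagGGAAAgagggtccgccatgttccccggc
Ppp3r1, chr11:17159048-17159347, plus strand: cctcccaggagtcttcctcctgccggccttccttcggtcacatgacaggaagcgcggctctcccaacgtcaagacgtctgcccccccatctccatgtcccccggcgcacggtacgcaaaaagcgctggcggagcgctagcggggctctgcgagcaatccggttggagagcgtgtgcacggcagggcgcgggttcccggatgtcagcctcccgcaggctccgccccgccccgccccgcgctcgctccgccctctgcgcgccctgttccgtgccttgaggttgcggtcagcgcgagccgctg
The Ppp3cb window holds 4 matches to the NFAT core, a number reached by 2.65% of all windows, and the Ppp3r1 window holds 0. Neither holds the cyclic AMP response element. The bases G and C make up 51% of the Ppp3cb window and 70.7% of the Ppp3r1 window, and the part of this in the matches was not tested. RefSeq windows were found for 8 of the 10 genes, 13 windows in all, of which 8 held an NFAT core and 1 the response element. Of all mouse windows 61.3% hold an NFAT core and 1.79% the response element, so nothing is read from these counts. Ppp3ca and Ppp3cc had no entry.

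Considered as a list, 1 of the 10 genes, Ppp3ca, passed an adjusted p of 0.05, where 1.28% of all tested genes did, 0.994% higher and 0.290% lower in accumbens. The groups did not overlap for 7 of the 10, 3 higher and 4 lower in accumbens, where 51.2% of all tested genes did not overlap. The median log2 fold change of the 10 genes was −0.18, against 0.02 for all tested genes. Since the genes were chosen with this comparison known, nothing is read from these counts.

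**Figure D3:**
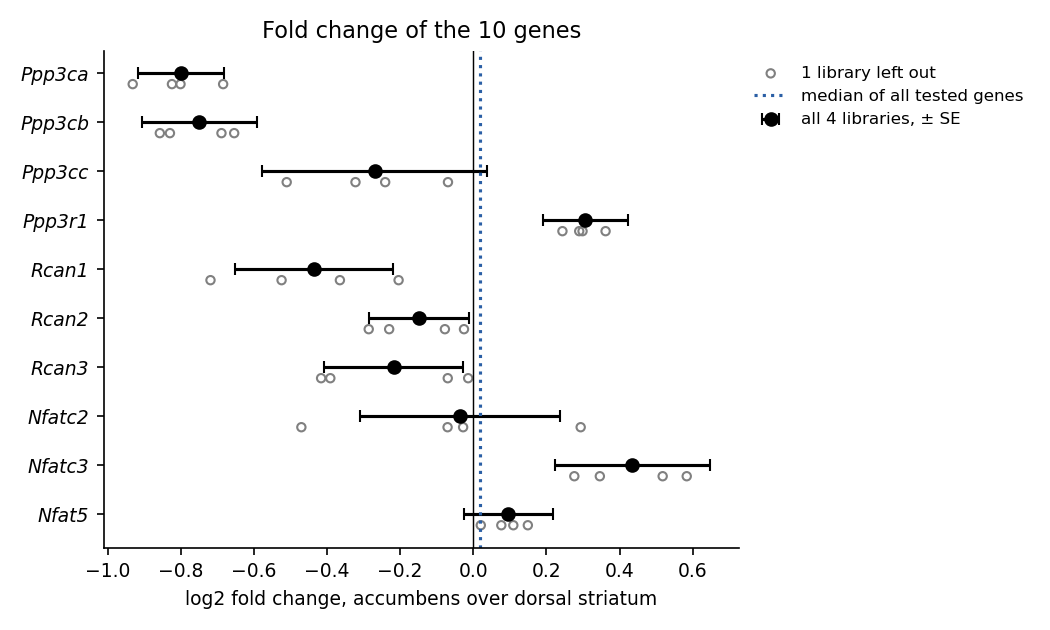
Log2 fold change of each gene, accumbens over dorsal striatum, with all 4 libraries (filled, ± SE) and with each library left out in turn (open circles); the dotted line is the median of all tested genes. Ppp3ca and Ppp3cb stay below −0.6 and Ppp3r1 and Nfatc3 above 0.2 whichever library is left out, while Nfatc2 changes sign.

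Levels can be compared between genes only per length. Per kilobase of longest coding transcript, the order in accumbens was Ppp3ca (284 ± 34.4 CPM per kilobase), Ppp3r1 (186 ± 10.8), Rcan2 (92.8 ± 6.94), Nfat5 (23.7 ± 0.377), Rcan1 (17.9 ± 4.47), Ppp3cb (17.8 ± 1.77), Rcan3 (16.6 ± 2.60), Nfatc3 (7.02 ± 0.590), Ppp3cc (6.66 ± 1.43) and Nfatc2 (4.84 ± 1.77; SD, n = 2 each). Of neighbours in this order, Rcan1 and Ppp3cb, Ppp3cb and Rcan3, Nfatc3 and Ppp3cc, and Ppp3cc and Nfatc2 overlapped between libraries. In dorsal striatum the first genes were Ppp3ca (494 ± 2.15 CPM per kilobase), Ppp3r1 (151 ± 0.403), Rcan2 (103 ± 12.4) and Ppp3cb (29.9 ± 1.85). There Rcan1 and Nfat5, Nfat5 and Rcan3, and Nfatc3 and Nfatc2 overlapped. By this length Ppp3cb stood 6th in accumbens, where it overlapped its neighbours, and 4th in dorsal striatum. By the union of exons it stood 7th in either region, so this change of place depended on the length used. With the union of exons as the length, Ppp3r1 stood above Ppp3ca in accumbens, at 165 ± 9.56 against 135 ± 16.4 CPM per kilobase, and below it in dorsal striatum, at 133 ± 0.357 against 235 ± 1.02.

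Replicates of a region differed for some genes by more than counting. The log2 ratio of replicate 1 to replicate 2 for Nfatc2 was 0.76 in accumbens, where counting alone gives an SD of 0.13, and 0.06 in dorsal striatum, where it gives 0.11. For Rcan1 it was −0.51 in accumbens (counting SD 0.11) and −0.14 in dorsal striatum (0.083). For Ppp3ca it was 0.25 in accumbens (0.020) and −0.01 in dorsal striatum (0.013). The median absolute gap of the 10 genes was 0.23 in accumbens and 0.13 in dorsal striatum, against 0.40 and 0.20 over all tested genes, many of which are lower in level.

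Of genes for calcineurin partners and inhibitors, 1 of 11 tested passed the threshold, of 13 listed, where 1.28% of all tested genes passed. This was Ppia, which encodes cyclophilin A, the cellular receptor through which cyclosporin A inhibits calcineurin. Ppia rose to 306 and 271 CPM in accumbens, against 117 and 136 CPM in dorsal striatum, a log2 fold change of 1.19 (SE 0.14, edgeR adjusted p = 0.0233, and 3.64e-11 to 0.0288 over alternatives). However, 38.8% of the 50-base stretches of its transcript also occur in transcripts of other genes, 116 in number, so its count is uncertain. Akap5, which encodes the anchoring protein that holds calcineurin at synapses, was at 873 and 815 CPM in accumbens, against 806 and 898 CPM in dorsal striatum. The median of the list was 0.22. Its count was 2 with DESeq2 (6.44% of all genes passed), limma-voom (2.97%) or the replicate number as a block (5.82%). Without the low-count filter it was 3 of 13, where 5.68% of all genes passed. The count also changed when accumbens replicate 2 was left out, a fit with 1 accumbens library. The cause of these changes was not tested.

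Of genes for other NFATs, NFAT kinases and NFAT transport, 1 of 15 tested passed, of 17 listed, where 1.28% of all tested genes did. Lrrk2, a kinase gene whose product has been tied to NFAT regulation in immune cells, fell to 138 and 147 CPM in accumbens, against 266 and 224 CPM in dorsal striatum, a log2 fold change of −0.78 (SE 0.14, edgeR adjusted p = 0.0462). It missed the threshold without dorsal striatum replicate 1 (edgeR adjusted p = 0.223) and with DESeq2 size factors in edgeR (0.0506), over alternatives that ranged from 6.76e-05 to 0.223. Gsk3b, which encodes a kinase that returns NFAT to the cytoplasm, was at 766 and 846 CPM in accumbens, against 1051 and 1038 CPM in dorsal striatum and did not pass. The list's median was −0.04, and its count was 0 without dorsal striatum replicate 1, where 0.710% of all tested genes passed. Leaving out accumbens replicate 1 gave 3 (2 higher, 1 lower), where 18.2% of all genes passed, and leaving out accumbens replicate 2 gave 4 (1 higher, 3 lower), where 28.9% did.

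Of 23 genes for calcineurin substrates, all tested, 1 passed, where 1.28% of all tested genes did. Marcks, which encodes an actin-binding protein of the membrane, rose to 116 and 149 CPM in accumbens, against 64.7 and 57.1 CPM in dorsal striatum, a log2 fold change of 1.12 (SE 0.18, edgeR adjusted p = 0.0371). It missed the threshold when dorsal striatum replicate 2 was left out (edgeR adjusted p = 0.0621), and over alternatives this p ranged from 2.47e-07 to 0.0621. The list's median was 0.22, with 16 positive and 7 negative fold changes. The DARPP-32 gene Ppp1r1b had a log2 fold change of −0.15 (SE 0.14), and the genes for the synaptic vesicle endocytosis substrates dynamin 1 (Dnm1) and synaptojanin 1 (Synj1) had 0.44 (SE 0.12) and 0.22 (SE 0.11). Leaving out accumbens replicate 1 gave 5, all higher, and leaving out accumbens replicate 2 gave 7, of which 5 were higher, near the 18.2% and 28.9% of all genes that passed in those fits.

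Of genes known to respond to NFAT in neurons or immune cells, 0 of 6 tested passed in edgeR, of 9 listed, with 3 at an unadjusted p under 0.05 and 1 passing in DESeq2 and in limma-voom. Over all tested genes 1.28% passed in edgeR, 6.44% in DESeq2 and 2.97% in limma-voom, and 19.2% had an unadjusted edgeR p under 0.05. Itpr1, the gene of the inositol trisphosphate receptor that releases calcium from stores, was at 985 and 749 CPM in accumbens, against 1342 and 1496 CPM in dorsal striatum. It had a log2 fold change of −0.71 (SE 0.15, edgeR adjusted p = 0.0624), and over 12 alternatives this p ranged from 5.11e-06 to 0.0677. Ptgs2 and Nr4a1 also had an unadjusted edgeR p under 0.05 and were higher in accumbens. Their log2 fold changes were 1.52 (SE 0.49, with 28 to 69 counts in a library) and 0.73 (SE 0.26). Egr3, an early response transcription factor gene, had −0.05 (SE 0.18) and accumbens libraries on either side of dorsal striatum. The cytokine genes Tnf and Il6 had 0 counts in all libraries, which allows up to 0.372 and 0.375 CPM in accumbens and 0.315 and 0.239 CPM in dorsal striatum (3 counts per library, counting error only). The list's median was 0.27, and its count was 1 without dorsal striatum replicate 1, 3 without accumbens replicate 1 and 4 without accumbens replicate 2, where 0.710%, 18.2% and 28.9% of all genes passed in the same order of fits.

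Of genes that NFAT5 controls under osmotic stress, 0 of 4 tested passed in edgeR, of 6 listed, against 1.28% of all tested genes. An unadjusted edgeR p under 0.05 was reached by 1, against 19.2% of all genes, and 0 passed in DESeq2 and in limma-voom. The taurine transporter gene Slc6a6 was at 329 and 229 CPM in accumbens, against 329 and 319 CPM in dorsal striatum. The myo-inositol transporter gene Slc5a3 was at 147 and 142 CPM in accumbens, against 112 and 124 CPM in dorsal striatum, with a log2 fold change of 0.29 (SE 0.14). The list's median was −0.03, and its count was 1, lower in accumbens, without accumbens replicate 1 and also without accumbens replicate 2, near the shares of all genes in those fits.

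**Figure D4:**
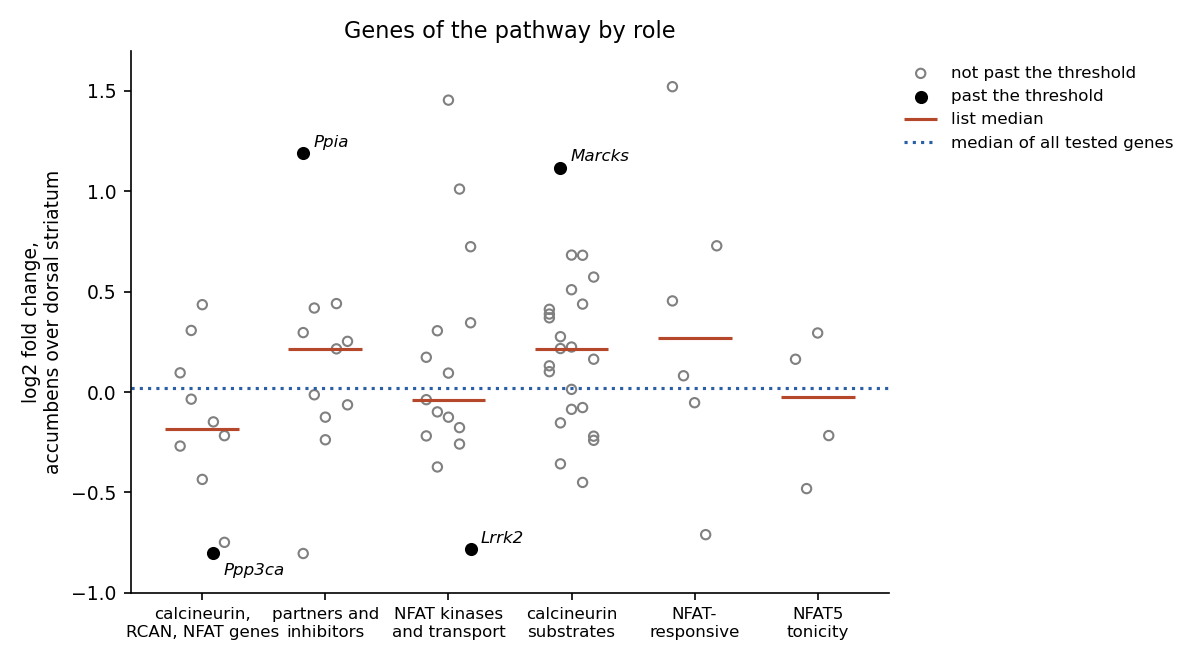
Log2 fold change, accumbens over dorsal striatum, of the 10 calcineurin, RCAN and NFAT genes and of the tested genes of 5 lists by role, with genes past the adjusted p of 0.05 filled and named, list medians as red lines and the median of all tested genes dotted. Ppia and Marcks lie above 1, and Ppp3ca and Lrrk2 lie near −0.8.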

How the data were processed

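The deposited values are raw read counts for each gene symbol. The submitters' processing notes name STAR 2.0.0e, HTSeq and the build mm10. Its annotation and its strand setting were not given in the sources used here. Rows that name no gene stayed out of library sizes: reads in no feature were 27.5 to 35.4% of each file, ambiguous reads 6.06 to 9.46% and reads with several alignments 6.98 to 10.2%.

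Counts were scaled by TMM and tested over 14493 genes (filterByExpr) by quasi-likelihood in edgeR 4.0.16 (R 4.3.3), two-sided, with no covariate beside region and with Benjamini-Hochberg adjustment. Each SE equals the absolute log2 fold change over the root of F. The procedure was tested on simulated data with the same dispersion for all genes. That setting is simpler than these data, so no error rate is taken from it. Levels are TMM-scaled CPM. Lengths, coordinates and overlaps came from GENCODE M21 (GRCm38, the chromosomes of mm10), and promoter windows from RefSeq. Matches of 50-base stretches used the same annotation's transcripts on both strands.

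The 10 genes and the lists were chosen with earlier results of these data known. From each list the text takes genes past the threshold, or else the 2 highest in CPM. Others, named for their role or their unadjusted p, were chosen after their values were seen. Alternatives were other scalings, no filter, DESeq2 1.42.0, limma-voom (limma 3.58.1), a robust fit, a replicate block, libraries left out and the 50 most abundant genes left out. Ppp3ca is 1 of those 50, so a version that kept the 10 genes was added after seeing the data.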

Additional observations from a re-analysis of the deposited data

How the results depend on the processing

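As a description, since the genes were chosen on this comparison, the log2 fold change of Ppp3ca was −0.97 to −0.68 over the 13 alternatives that fitted it and that of Ppp3cb −0.92 to −0.65 over 14. Nfatc2 changed sign without accumbens replicate 2, Nfat5 with library size alone, and the other 6 genes kept their sign. Over all genes 186 passed, 1203 without the low-count filter, 431 with limma-voom, 933 with DESeq2, and 109 to 4464 with 1 library left out, where a lone library is taken to vary like the other region's pair. Of the 10 genes 1 passed, 2 with library size alone, without the filter, with limma-voom or with DESeq2, 0 without the 50 most abundant genes, which leaves out Ppp3ca itself (1 with the 10 genes kept), and 1 to 3 with a library left out.

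With a library left out, the count of each list changed in some fit. The share of all genes passing changed too, and 1 region then held 1 library, so nothing is read from those counts. Without the filter 3 of 13 partners, 4 of 23 substrates and 2 of 7 NFAT-responsive genes passed, where 5.68% of all genes did. DESeq2, where 6.44% of all genes passed, gave 2 of 11 partners, 2 of 15 kinase and transport genes, 4 of 23 substrates and 1 of 6 NFAT-responsive genes. Limma-voom, where 2.97% passed, gave 2 of 11 partners, 3 of 23 substrates and 1 of 6 NFAT-responsive genes. DESeq2 size factors, where 1.01% of all genes passed, gave 0 kinase and transport genes. Upper-quartile scaling (1.31% of all genes) or library size alone (1.68%) gave 1 NFAT-responsive gene. The share of calls higher in accumbens was 77.4% with TMM, 67.4% with the upper quartile and 29.5% with library size alone. Without accumbens replicate 2 the log2 fold change of Egr3 was 0.20 and that of Slc6a6 0.016, range −0.37 to 0.20 and −0.50 to 0.016 with a library left out. The cause of these changes was not tested.

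Replicates share numbers between regions, but the deviations of equally numbered libraries correlated by only 0.0326 over 14493 genes, and the labels do not say whether equal numbers mark shared animals, so the numbers were not used as pairs. With the replicate number as a block 843 genes passed, 5.82% of all tested. They held 2 of the 10 genes, 2 of 11 partners, 3 of 23 substrates and 2 of 6 NFAT-responsive genes.

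In the order of mean levels per kilobase over all 4 libraries, 4 genes changed place with the union of exons and 0 to 2 with a library left out. The order within accumbens also changed for Ppp3ca and Ppp3r1, as given above. With 2 libraries a region, an exact permutation test of a single ratio could not pass the threshold.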
